A study of Mus musculus with 3 samples.

Results

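The genes described here are 32 genes of the DNA replication and mitosis machinery, 14 that act in S phase and 18 that act in mitosis, read in sorted progeny of mouse embryonic stem cells. They were listed by name, with earlier results of these data known, and no measured value enters the rule. Each was represented by its brightest probe set among those that the platform annotation gives 1 gene symbol. Of the 32 genes, 31 had such a probe set and reached the floor for a measured gene, among 13969 measured genes of 18193 on the array. The floor, 25.6, is the intensity that 40% of all values lie under, and 1 array at or above it was enough. The level of Ccnb1 was not analysed here, which leaves 17 measured mitotic genes. Its promoter was read with the others.

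The cells were of the line A2.snail, whose added Snail gene responds to doxycycline; Snail, the product of Snai1, represses epithelial genes. They had differentiated in suspension into embryoid bodies, which contain early germ layer cells, with 10% FCS and DKK1, a secreted Wnt inhibitor. Day 3 cells were separated by surface Flk1, the VEGF receptor that Kdr encodes. There were 3 Affymetrix arrays, 1 per group: untreated Flk1- cells (0 ng/mL doxycycline), and Flk1- and Flk1+ cells of cultures given 250 ng/mL doxycycline on day 2, named Snail-induced Flk1- and Snail-induced Flk1+ in what follows. All 3 groups share the line, the serum and DKK1. Neither untreated Flk1+ cells nor cells that lacked the Snail gene but had doxycycline were analysed here. Effects of Snail and of doxycycline cannot be told apart, and a difference between Flk1+ and Flk1- cells cannot be set against untreated cultures. All values come from 1 line, and the labels do not say how many cultures were pooled.

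Array medians were similar, at 42.7, 42.4 and 44.6 intensity units. Because each group has 1 array, differences have no replicate check and carry no test, error or p-value, and the small number of arrays limits their precision. Kdr stood at 10.5, 9.73 and 404 on the untreated Flk1-, Snail-induced Flk1- and Snail-induced Flk1+ arrays, the order of arrays used throughout; its protein was the sorting marker, so these values check the labels only. The only Snai1 probe set stood at 29.1, 13.1 and 19.8, near or under the floor, and so gave no check of the doxycycline labels. All 15 endothelial and hemangioblast markers were brighter on the Flk1+ array than on the Snail-induced Flk1- array, where 7 of them lay under the floor.

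DNA is copied in S phase and the copies are parted in mitosis. Before S phase, the origin recognition complex, Cdc6 and Cdt1 load the ring of Mcm proteins onto DNA, and this helicase later opens the fork at which Pcna holds the polymerases. In mitosis, Cdk1 with its cyclins condenses the chromosomes and builds the spindle, the checkpoint proteins watch the kinetochores, and the anaphase promoting complex then degrades the cyclins. Many S phase genes are known to be switched on by E2F factors before and during S phase, whereas many mitotic genes are known to be held back by the DREAM complex at a promoter element called the CHR and switched on later by B-Myb and FoxM1. Embryonic stem cells and the early epiblast are known for rapid cycles with short gap phases.

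Promoters of members were read first, because the groups are known for different promoter elements. The RefSeq promoter table for GRCm38.p6 gives 250 bases before and 50 after each start, and 28 of the 32 members had an entry. Gins1, Mcm4, Aurkb and Ccna2 had none. Both kinds of element were searched by their letters on both strands. The CHR was searched as TTTGAA or as TTCGAA. The E2F core was searched as TTCCCGC, as TTGGCGC, as TTCGCGC or as TTGCCGC, and these words can overlap each other. In the sequences that follow, written 5′ to 3′ on the gene's strand, capitals mark every letter inside a match to either element. The first set shows S phase genes: Orc1, Cdc6 and Mcm6 were among the S phase genes with the largest differences, and Rrm2 was the exception in direction on the Flk1+ array. They lie at chr4:108579204-108579503, plus strand (Orc1), chr11:98907901-98908200, plus strand (Cdc6), chr1:128359656-128359955, minus strand (Mcm6) and chr12:24708004-24708303, plus strand (Rrm2).
Orc1: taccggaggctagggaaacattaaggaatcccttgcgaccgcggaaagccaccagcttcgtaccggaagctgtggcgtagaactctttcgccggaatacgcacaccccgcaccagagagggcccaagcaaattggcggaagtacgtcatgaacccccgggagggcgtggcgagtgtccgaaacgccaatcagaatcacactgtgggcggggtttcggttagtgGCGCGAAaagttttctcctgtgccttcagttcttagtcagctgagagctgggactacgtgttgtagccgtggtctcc
Cdc6: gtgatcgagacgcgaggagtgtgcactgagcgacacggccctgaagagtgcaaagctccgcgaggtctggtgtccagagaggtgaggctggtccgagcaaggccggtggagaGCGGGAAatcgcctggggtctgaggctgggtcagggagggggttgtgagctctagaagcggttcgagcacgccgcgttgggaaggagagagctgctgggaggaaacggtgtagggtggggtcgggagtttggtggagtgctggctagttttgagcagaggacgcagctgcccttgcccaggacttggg
Mcm6: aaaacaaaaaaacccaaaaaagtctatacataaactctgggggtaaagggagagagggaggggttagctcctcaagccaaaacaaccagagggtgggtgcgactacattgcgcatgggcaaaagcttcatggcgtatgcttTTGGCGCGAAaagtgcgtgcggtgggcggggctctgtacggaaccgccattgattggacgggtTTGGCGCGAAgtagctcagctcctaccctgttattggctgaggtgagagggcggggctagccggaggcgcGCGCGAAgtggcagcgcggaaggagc
Rrm2: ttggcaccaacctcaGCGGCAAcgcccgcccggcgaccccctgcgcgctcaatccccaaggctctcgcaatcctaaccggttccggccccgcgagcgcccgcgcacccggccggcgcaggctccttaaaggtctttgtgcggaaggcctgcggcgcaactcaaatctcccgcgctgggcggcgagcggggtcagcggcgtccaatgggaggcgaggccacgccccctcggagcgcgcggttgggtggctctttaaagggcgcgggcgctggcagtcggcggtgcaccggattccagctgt

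The other set shows mitotic genes: Cenpe, Mki67 and Cdk1 had the largest differences upward on the Flk1+ array, and Ccnb2 went the other way. They lie at chr3:135212313-135212612, plus strand (Cenpe), chr7:135716330-135716629, minus strand (Mki67), chr10:69352863-69353162, minus strand (Cdk1) and chr9:70421505-70421804, minus strand (Ccnb2).
Cenpe: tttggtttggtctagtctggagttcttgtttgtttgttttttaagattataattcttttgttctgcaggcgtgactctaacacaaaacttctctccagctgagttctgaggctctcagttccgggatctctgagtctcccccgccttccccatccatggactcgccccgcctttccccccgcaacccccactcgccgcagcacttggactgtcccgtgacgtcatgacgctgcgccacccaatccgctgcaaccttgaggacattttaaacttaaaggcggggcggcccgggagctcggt
Mki67: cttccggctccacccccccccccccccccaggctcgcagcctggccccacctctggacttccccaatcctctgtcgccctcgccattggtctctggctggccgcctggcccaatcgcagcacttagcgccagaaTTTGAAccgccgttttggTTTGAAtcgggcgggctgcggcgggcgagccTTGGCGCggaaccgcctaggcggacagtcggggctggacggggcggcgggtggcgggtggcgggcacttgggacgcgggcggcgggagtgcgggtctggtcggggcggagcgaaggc
Cdk1: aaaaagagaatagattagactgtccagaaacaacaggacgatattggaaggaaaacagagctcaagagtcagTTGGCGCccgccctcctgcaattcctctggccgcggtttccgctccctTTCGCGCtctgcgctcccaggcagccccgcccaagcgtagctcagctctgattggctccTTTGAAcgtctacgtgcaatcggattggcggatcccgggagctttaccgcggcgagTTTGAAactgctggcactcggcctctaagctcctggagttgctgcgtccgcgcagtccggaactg
Ccnb2: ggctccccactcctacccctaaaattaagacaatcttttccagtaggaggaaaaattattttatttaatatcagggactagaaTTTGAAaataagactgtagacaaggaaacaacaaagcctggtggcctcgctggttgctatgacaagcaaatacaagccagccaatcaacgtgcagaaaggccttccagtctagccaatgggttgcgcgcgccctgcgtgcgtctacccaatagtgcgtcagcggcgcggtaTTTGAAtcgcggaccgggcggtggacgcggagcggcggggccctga

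An E2F core was present in the promoters of 9 of the 12 S phase genes in the table (75%) and in 3 of 16 mitotic genes (18.8%), against 10.9% of all 27025 genes and 9.57% of all 32851 promoters. A CHR was present in 2 of the 12 S phase genes (16.7%) and in 12 of the 16 mitotic genes (75%), against 21.7% of all genes and 19.2% of all promoters. The S phase genes with a CHR were Mcm2 and Mcm7, and the mitotic genes with an E2F core were Ccnb1, Cdk1 and Mki67. Mcm6 held 5 E2F matches, of which the first, at -109 from the start site, overlaps the next. Cdk1, Mki67 and Mcm7 held both elements. Cenpe, the mitotic gene with the largest difference between arrays, held neither, as did Birc5, Mad2l1, Tyms and Pcna. A CCAAT box, searched as CCAAT and not capitalised, was present in 75% of the S phase and 87.5% of the mitotic genes, against 41.1% of all genes. Larger lists of the same pathways, also written from textbook knowledge, gave an E2F core in 57.9% of 38 further replication genes and a CHR in 64.4% of 45 further mitotic genes. These are matches of letters and not measured binding sites. The median share of G and C bases was 57.5% in S phase promoters, 57.8% in mitotic promoters and 52.8% over all genes. Its part in the difference from all genes was not tested.

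**Figure D1:**
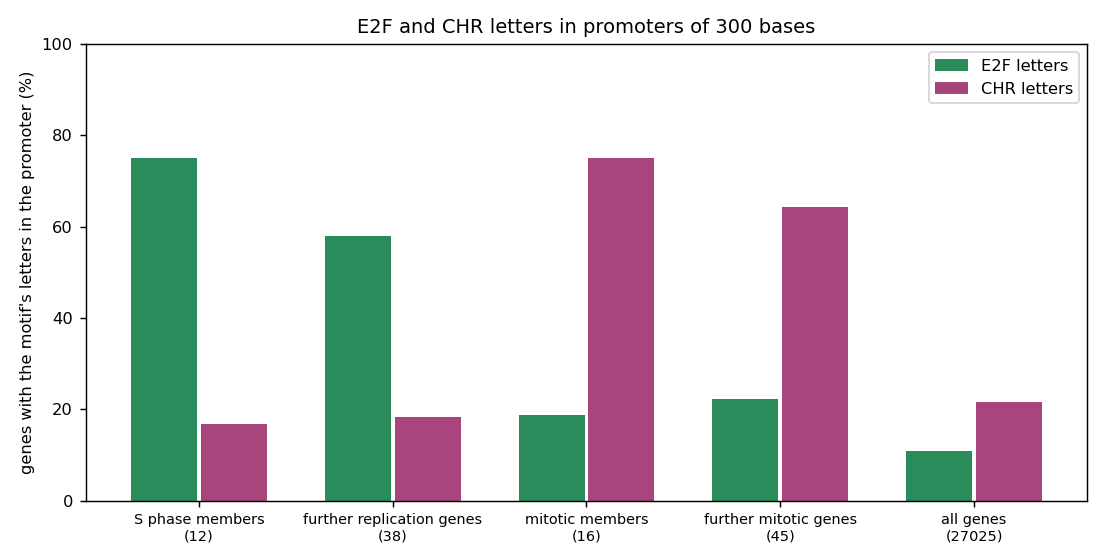
Percent of genes (vertical axis) whose promoter holds the letters of an E2F core or of a CHR, for each list (number of genes in the promoter table in brackets). The E2F share is 75% in S phase genes and 18.8% in mitotic genes, the CHR share 16.7% and 75%, and all genes give 10.9% and 21.7%.

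Both groups of genes were bright on every array, and their levels moved little between them. Of the 31 measured genes, 29 were at or above 370, the level that 80% of all intensities lie under, on all 3 arrays. The exceptions were Orc1, which was under it on the Flk1+ array, and Tyms, thymidylate synthase, which was dim throughout. The span between the highest and lowest array, as a log2 difference of value plus an offset of 9.53, had a median of 0.20 over members and 0.48 over all measured genes. Because bright genes vary less on arrays, the 5755 measured genes with a mean in the top 20% of intensities were added as a second background after values were seen, and their median span was 0.35. This background starts at 370, whereas 25 of the 31 members were at or above 970, the 90th percentile, on all 3 arrays. It was thus not matched to the brightness of the members, and the part of brightness in their smaller differences was not tested. The smallest span was that of Plk1, 0.03, and the largest that of Cenpe, 0.64 or 1.56-fold. The log2 differences below are all on this offset scale.

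**Figure D2:**
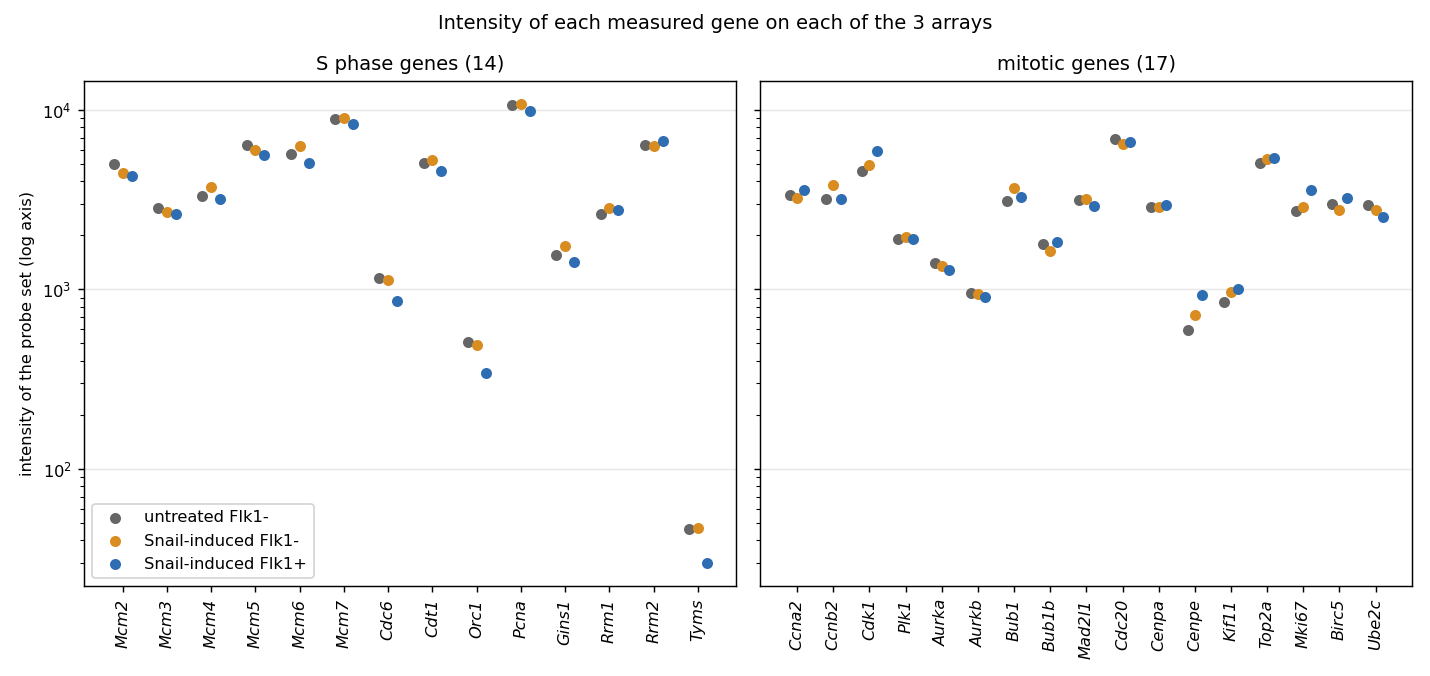
Intensity (log axis) of the probe set of each measured gene on each array, S phase genes at left and mitotic genes at right; each point is 1 array. Within a gene the 3 points lie close together, the widest being Cenpe at 593, 722 and 931; the height of a point is not to be compared between genes, since each has its own probes.

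The first comparison, Snail-induced against untreated Flk1- cells, concerns induction without gain of Flk1. Neither group of genes was set apart from 0: the S phase genes had a median log2 difference of 0.02 and the mitotic genes 0.03, against 0.04 over all measured genes. None of the 31 genes (0) was at least 2-fold higher or lower, where 2.95% of all measured genes reached 2-fold upward and 2.03% downward. Of the 5755 bright genes 101 reached it upward and 35 downward. With each array centred on its median over measured genes, the share of 2-fold calls over all measured genes that were higher went from 59.3% to 44.1%. A difference of at least 1.5-fold in either direction was reached by 0 members and by 16.3% of all genes. Below 0 lay 6 of 14 S phase and 8 of 17 mitotic genes, against 45.1% of all genes and 36.3% of the bright ones. After centring these counts were 10 of 14 and 12 of 17, against 57.5% of all genes, so no direction is given for either group. The median size of the difference, regardless of sign, was 0.07 over members, 0.23 over all measured genes and 0.16 over the bright ones.

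The S phase genes with the largest differences in this comparison lay on both sides of 0. Gins1, a subunit of the GINS part of the replicative helicase, stood at 1543 on the untreated and 1739 on the Snail-induced Flk1- array. Mcm6, a helicase subunit, stood at 5644 and 6275, and Mcm2, another subunit, at 4974 and 4435. Their log2 differences were 0.17, 0.15 and -0.17, but a further probe set of Mcm2 gave 0.06 and a further one of Mcm6 gave -0.14. Among mitotic genes the largest were Cenpe, the kinetochore motor, at 593 and 722, Ccnb2, cyclin B2, at 3172 and 3797, and Bub1, the spindle checkpoint kinase, at 3091 and 3684. These were 1.21-fold, 1.20-fold and 1.19-fold higher with induction, also on the further measured probe sets of Cenpe (42.2 and 80.8) and Bub1 (75.7 and 98.8). The lowest was Bub1b, a further checkpoint kinase, at 1789 and 1639. All 31 genes lay within 1.21-fold between these arrays.

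The second comparison sets Snail-induced Flk1+ against Snail-induced Flk1- cells, and asks what differed with the Flk1 sort. Here most S phase genes were slightly lower on the Flk1+ array, while the mitotic genes had no direction that held under every scaling and choice of probe set. Below 0 lay 13 of 14 S phase genes, a count that was the same after quantile normalisation and after centring, and 7 of 17 mitotic genes (9 and 6 under those scalings), against 49.9% of all measured genes and 52.2% of the bright ones. The median log2 difference was -0.17 for S phase and 0.02 for mitotic genes, so the S phase median lay 0.19 under the mitotic one, and the median of all measured genes was 0.00. With the mean over a gene's probe sets the mitotic median was -0.05 and 11 of 17 were lower, and with the next brightest probe set, which 8 mitotic and 11 S phase genes have, the mitotic median was -0.14 and the S phase median lay 0.06 under it. No member, 0 of 31, was 2-fold apart, where 4.85% of all genes reached 2-fold upward and 4.89% downward, and 0 reached 1.5-fold, where 24.1% of all genes did. Of the 5755 bright genes 203 reached 2-fold upward and 162 downward. The median size of the difference was 0.14 over members, 0.30 over all measured genes and 0.22 over the bright ones.

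**Figure D3:**
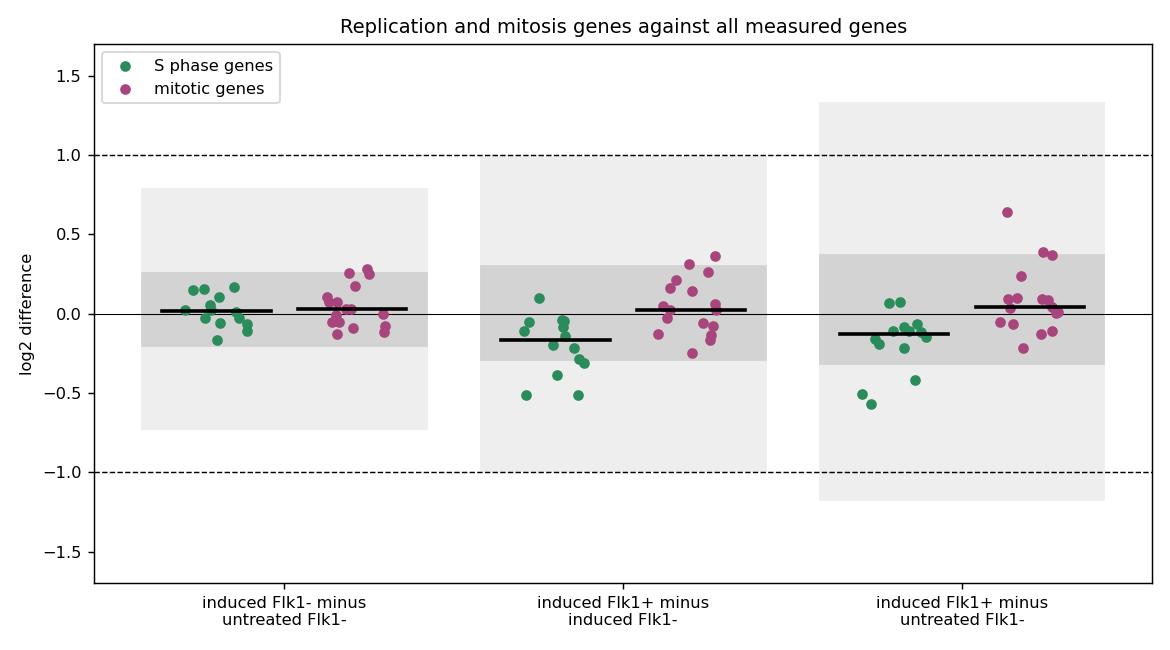
Log2 difference (vertical axis) of each S phase and mitotic gene in each comparison; each point is 1 gene, black bars are medians, the dark band spans the 25th to 75th percentile of all measured genes and the light band the 5th to 95th, and dashed lines mark 2-fold. All 31 genes lie inside the light band in each comparison, and 13 of 14 S phase genes lie under 0 in the middle one; the signs of mitotic genes close to 0 change with the scaling in all 3 comparisons.

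Orc1 and Cdc6, of origin licensing, had the largest differences among the S phase genes apart from the dim Tyms. Orc1, the largest subunit of the origin recognition complex, stood at 512, 491 and 341. Cdc6, which recruits the Mcm ring to origins, stood at 1150, 1126 and 858. Cdt1, the other loader of the ring, stood at 5073, 5265 and 4591. In all 3 genes both Flk1- arrays lay together and the Flk1+ array lay under them, at 1.43-fold, 1.31-fold and 1.15-fold under Snail-induced Flk1-. A further measured probe set of Orc1 gave a log2 difference of -0.23 and one of Cdt1 gave -0.48, beside -0.51 and -0.20 for the brightest.

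All 6 subunits of the Mcm helicase were lower on the Flk1+ array than on the Snail-induced Flk1- array, with log2 differences from -0.31 to -0.05, and remained so under both other scalings. Mcm6 stood at 5644, 6275 and 5059, and Mcm4 at 3331, 3697 and 3179, so that both were highest on the Snail-induced Flk1- array. Mcm7 stood at 8878, 9020 and 8368, Mcm5 at 6397, 5940 and 5605, Mcm2 at 4974, 4435 and 4284, and Mcm3 at 2823, 2704 and 2615. For Mcm5, Mcm2 and Mcm3 the array order was the same, with untreated Flk1- highest and Flk1+ lowest. Further probe sets gave larger drops for Mcm7, with 1 at 4867, 5018 and 3459 (-0.54), and for Mcm2 (-0.41), whereas a further probe set of Mcm4 gave 0.28.

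At the fork, Pcna, the clamp that holds the polymerases, stood at 10593, 10781 and 9800, and Gins1 stood at 1543, 1739 and 1425. Both were lowest on the Flk1+ array, at -0.14 and -0.29 against Snail-induced Flk1-. The genes of nucleotide supply differed from these. Rrm2, the small subunit of ribonucleotide reductase, stood at 6398, 6283 and 6734 and was the only S phase gene above 0, at 0.10. Rrm1, the large subunit, stood at 2631, 2830 and 2759, at -0.04. Tyms stood at 46.2, 46.5 and 29.7, close to the floor on the Flk1+ array, so its log2 difference of -0.51 rests on dim values.

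Mitotic genes went both ways. Cdk1, the kinase that drives entry into mitosis, stood at 4558, 4904 and 5889, and Mki67, which coats mitotic chromosomes, stood at 2720, 2860 and 3559. Cenpe stood at 593, 722 and 931, so all 3 of these genes were highest on the Flk1+ array, at 1.20-fold, 1.24-fold and 1.29-fold over Snail-induced Flk1-. Birc5, survivin of the chromosomal passenger complex, stood at 3004, 2772 and 3207, and Ccna2, cyclin A2, at 3360, 3238 and 3583. Both were lowest on the Snail-induced Flk1- array, and they were higher on the Flk1+ array by 0.21 and 0.15 on the log2 scale.

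In the other direction, Ccnb2 stood at 3172, 3797 and 3196 and Bub1 at 3091, 3684 and 3278. Both were high on the Snail-induced Flk1- array alone, with log2 differences of -0.25 and -0.17 from it to the Flk1+ array. Mad2l1, the checkpoint protein Mad2, stood at 3137, 3205 and 2916. Ube2c, the E2 enzyme of the anaphase promoting complex, stood at 2948, 2768 and 2536, and Aurka, a kinase of the spindle poles, at 1402, 1351 and 1282; both were lowest on the Flk1+ array. Aurkb, the passenger complex kinase, stood at 948, 942 and 904.

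Plk1, polo-like kinase, stood at 1908, 1946 and 1913, and Cenpa, the centromeric histone, at 2874, 2867 and 2959. Cdc20, which activates the anaphase promoting complex, stood at 6854, 6488 and 6597, and Top2a, topoisomerase II, at 5046, 5312 and 5402. Kif11, the spindle motor Eg5, stood at 855, 968 and 1010, and Bub1b at 1789, 1639 and 1830. Between the induced arrays, Cdc20 and Top2a were just above 0 as deposited and just below it after quantile normalisation, and Plk1 was just below 0 as deposited and just above it after centring.

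Probe sets of the same gene read the same RNA and give the only check of these differences that the arrays allow. Over all measured probe sets, 28 of 34 for S phase genes and 15 of 28 for mitotic genes lay below 0 between the induced arrays, with medians of -0.18 and -0.04. Of the 11 S phase genes with more than 1 measured probe set, 7 had all of them on the same side of 0, and Mcm4, Mcm7, Rrm1 and Rrm2 did not. Of 8 such mitotic genes, 4 did, and Bub1b, Cdc20, Kif11 and Top2a did not. The brightest and the next probe set of a gene differed by a median of 0.28 on the log2 scale for S phase genes and 0.22 for mitotic genes. This gap was 0.23 for all measured genes with at least that many and 0.18 for the bright ones. For S phase genes the gap was thus larger than the size of their median difference, -0.17. With the next brightest probe set in place of the brightest, 8 of 11 S phase genes and 5 of 8 mitotic genes were lower.

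**Figure D4:**
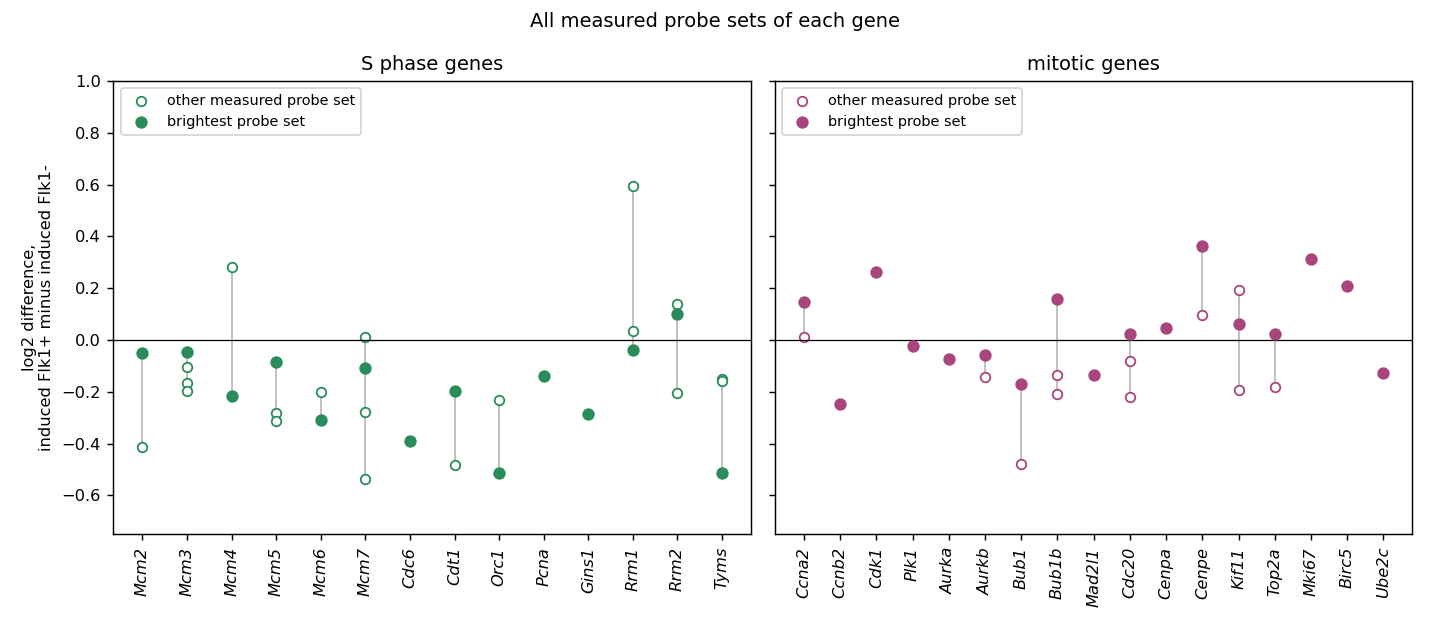
Log2 difference between Snail-induced Flk1+ and Snail-induced Flk1- (vertical axis) of every measured probe set of each gene, filled for the brightest and open for the others, joined by a line within a gene. S phase points lie below 0 in 28 of 34 cases and mitotic points in 15 of 28; Cdc20 and Top2a cross 0 after quantile normalisation and Plk1 after centring.

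The third comparison, from untreated Flk1- to Snail-induced Flk1+, is the sum of the other two on the log scale and shares its arrays with them, so it is no further evidence. Of the S phase genes 12 of 14 were below 0, under each scaling too, with Rrm1 and Rrm2 above. Of the mitotic genes 5 of 17 were below 0, against 48.7% of all measured genes and 45.2% of the bright ones. The mitotic count was 9 of 17 after quantile normalisation and after centring, where Ccnb2, Plk1, Bub1b and Cenpa changed sign. With the mean over a gene's probe sets, 10 of 13 S phase and 9 of 17 mitotic genes were below 0. With the next brightest probe set these counts were 8 of 11 and 5 of 8. The median log2 difference was -0.13 for S phase genes, 0.04 for mitotic genes and 0.01 for all measured genes. Again 0 of 31 genes were 2-fold apart, where 8.10% of all genes reached 2-fold upward and 6.41% downward. Of the 5755 bright genes 389 reached it upward and 215 downward. Cenpe, 1.56-fold higher, was the 1 member past 1.5-fold, where 30.8% of all genes were, and a further Cenpe probe set stood at 42.2, 80.8 and 87.2. Orc1, 1.49-fold lower, came next, and then Tyms, Cdc6, at 1.34-fold lower, and Mki67, at 1.31-fold higher.

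Read gene by gene, the Flk1+ array was the lowest of the 3 for 12 of 14 S phase genes (85.7%) and for 4 of 17 mitotic genes (23.5%), against 38.3% of all measured genes. It was the highest for 1 S phase gene and for 9 mitotic genes (52.9%), against 39.8% of all genes. The mitotic genes lowest there were Aurka, Aurkb, Mad2l1 and Ube2c. The count of 9 mitotic genes highest there depends on the scaling. Bub1b and Cenpa lay just under the untreated Flk1- array after quantile normalisation and after centring. Top2a lay just under the Snail-induced Flk1- array after quantile normalisation.

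Larger lists of the same 2 pathways were read beside the members, first between the induced arrays. Of 45 measured further replication genes, 39 were below 0 (41 after quantile normalisation and 39 after centring), or 86.7% against 49.9% of all measured genes and 52.2% of the bright ones, with a median of -0.28 and 0 past 2-fold. Chaf1b, of the chromatin assembly factor at the fork, stood at 1010, 917 and 616, and Pold2, a subunit of DNA polymerase delta, at 2258, 2122 and 1435; both Flk1- arrays lay above Flk1+. The exceptions upward with the largest differences were Ccne2, cyclin E2, at 278, 242 and 300 and Clspn, claspin, at 766, 811 and 907. Of 54 measured further mitotic genes, 26 were below 0 (31 after quantile normalisation and 23 after centring), or 48.1%, with a median of 0.00 and 0 past 2-fold. Zwint, a kinetochore protein, stood at 2146, 2828 and 4162 and Cdc16, a subunit of the anaphase promoting complex, at 2302, 2806 and 3607, whereas Cdca5, sororin, which holds sister chromatids together, stood at 3336, 2322 and 1518 and Kif18a, a spindle motor, at 745, 868 and 566.

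From the untreated Flk1- to the Snail-induced Flk1+ array, 35 of the 45 further replication genes were below 0 (40 under both scalings), with a median of -0.25. This was 77.8%, against 48.7% of all measured genes and 45.2% of the bright ones. Pola2, a subunit of the primase complex, stood at 1161, 802 and 555 and was the 1 gene past 2-fold, at 2.07-fold lower, with the Snail-induced Flk1- array between the others. Ccne1, cyclin E1, stood at 1447, 1106 and 832. Of the 54 further mitotic genes 19 were below 0 (30 after quantile normalisation and 28 after centring), or 35.2%, and Cdca5, at 2.19-fold lower, was the 1 gene past 2-fold, with Zwint 1.93-fold higher. In the first comparison the medians were 0.02 for further replication genes, with 20 of 45 below 0 (44.4%) and 30 after centring, and 0.10 for further mitotic genes, with 16 of 54 below 0 (29.6%) and 29 after centring, against 45.1% of all measured genes and 57.5% after centring. Of the bright genes 36.3% were below 0 there before centring, with a median of 0.07.

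**Figure D5:**
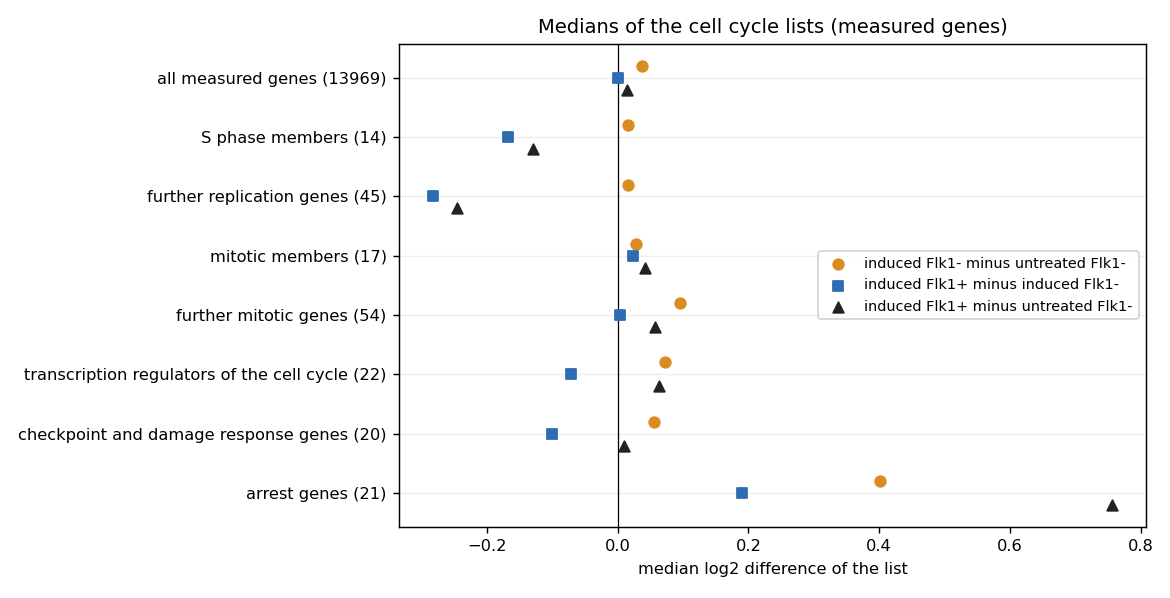
Median log2 difference (horizontal axis) of each list in each comparison, with the number of measured genes in brackets. The 2 replication lists stand at -0.17 and -0.28 between the induced arrays and the 2 mitotic lists at 0.02 and 0.00; every median between -0.1 and 0.1 should be read as having no direction, since several change sign with the scaling, whereas those of the arrest genes and, in the comparisons with the Flk1+ array, of the replication lists do not.

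The groups also differed in cell type markers, and more so than in these genes. The summed intensity of 15 endothelial and hemangioblast markers was 849, 1367 and 12769, with 9, 7 and 0 of them under the floor. That of 12 pluripotency and epiblast markers was 44958, 44633 and 22517, with 0, 0 and 1 under the floor, and that of 10 epithelial markers was 17008, 6743 and 1955, with 0, 0 and 2 under it. The pluripotency sum was thus lowest on the Flk1+ array, as were 12 of 14 S phase genes, and its part in the result was not tested. Both Flk1- arrays lay together in that sum, as in Orc1 and Cdc6, but not in every S phase gene, Mcm2 standing at 4974, 4435 and 4284. The sum is weighted to its brightest probe sets, and not every marker in it followed. Fgf5 stood at 2058, 785 and 112, and Fgf4 at 568, 326 and 23.5. From the untreated to the Snail-induced Flk1- array, 5 of the 12 markers were below 0 (41.7%, against 45.1% of all measured genes), with a median of 0.07. For RNA of whole sorted populations, fewer cells in S phase and less of these RNAs per cell cannot be told apart.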

How the data were processed

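Per the labels' protocols, 2 ug of column purified total RNA gave biotinylated cRNA for standard Affymetrix hybridisation. The deposited values are linear intensities, 1 for each probe set on each array, between 0.5 and 18191. The authors' summary method, scaling target and software were not given in the sources used here. Their 2% trimmed means were 264, 274 and 279, and they were used as deposited.

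Of 45037 probe sets, 34945 had 1 gene symbol, 932 several and 9160 none; Entrez IDs linked symbols to RefSeq's GRCm38.p6 gene table, except 204 that did not match. The log2 scale used adds an offset of 9.53, the 20th percentile of the deposited intensities, before the logarithm, so that dim genes show too small a difference. The probe set with the highest mean log2 value stood for its gene. Log2 differences were also written as folds, and with 1 array per group no test was run. The summary steps were tested on simulated data. Python 3.11.15, pandas 2.3.3, numpy 2.4.6 and matplotlib 3.10.9 were used.

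The members and lists were chosen with earlier results of these data known. Named genes were all members and, from each other list and comparison, up to 2 genes at each end of the ranked differences; not all that the rule takes are printed. The E2F genes other than E2f2, and Foxm1, were added after values were seen. The mean over each list, the scaling, offset, floor and choice of probe set were varied. Promoter letters were counted in the RefSeq promoter table.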

Additional observations from a re-analysis of the deposited data

How the results depend on the processing

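The members' counts past 2-fold and list medians were recomputed under quantile normalisation, centring of each array, each gene's mean over its probe sets, no probe sets shared between transcripts, the next brightest probe set, a floor of none or of the 60th percentile, an offset of 0 or of the 40th percentile, thresholds of 1.5-fold and 3-fold, and the mean over members. Of 123 values, 116 moved by less than 0.1 on the log2 scale or kept their count. This says little of direction, since several medians are smaller than 0.1 and could change sign within that limit. After centring, the mitotic median went from 0.028 to -0.07 in the first comparison and from 0.042 to -0.026 in the third. Some values could not move: a count of 0 at 2-fold stays 0 at 3-fold, and centring shifts both groups of genes alike. Between the induced arrays, the S phase median became -0.284 without shared probe sets. The mitotic median became -0.138 with the next brightest probe set, and the S phase median minus the mitotic one became -0.061 with it and -0.086 with the mean over probe sets, its range over all settings being -0.284 to -0.061. From untreated Flk1- to Flk1+, the mitotic median became -0.136 with the next brightest probe set, the S phase minus mitotic value became -0.272 as a mean over members, and the count past the threshold became 1 at 1.5-fold. The S phase minus mitotic value there, -0.171 in the main setting, shrank to -0.088 with the mean over probe sets. It shrank to -0.077 with the next brightest, both moves being under 0.1. With the mean over probe sets, 10 of 13 S phase genes and 11 of 17 mitotic genes were lower between the induced arrays. Over all measured genes in the first comparison, 412 were at least 2-fold higher and 283 lower; these counts were 263 and 178 with the mean over probe sets, 176 and 112 with the next brightest (6494 genes), 322 and 168 with the higher floor, 609 and 528 with no offset and 261 and 135 with the larger one. With the next brightest they were 320 and 253 in place of 678 and 683 between the induced arrays, and 518 and 347 in place of 1132 and 896 in the third comparison. No paired analysis was possible because each group has 1 array. The other cell cycle lists were recomputed under both scalings alone, and spans under no alternative. Orders of arrays were read under the scalings only for mitotic genes that changed sign. Array noise cannot be measured without replicates.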

Other observations

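A few regulators of the cell cycle had larger differences than the machinery itself, in a list whose count past 2-fold was near the share over all measured genes. E2f2 and Myc among them were dimmer than every member but Tyms, and bright genes vary less on arrays. Mybl2, which encodes B-Myb, stood at 653, 681 and 319 on the untreated Flk1-, Snail-induced Flk1- and Snail-induced Flk1+ arrays. It was 2.10-fold lower on the Flk1+ array than on the Snail-induced Flk1- array, the 1 of 22 measured regulators past 2-fold there, where 4.89% of all genes were lower by as much, also under both other scalings. E2f2, an activating E2F, stood at 116, 97.8 and 54.3, with both Flk1- arrays above Flk1+. The other E2F genes went both ways between the induced arrays. E2f1, at 439, 386 and 464, and E2f3, at 898, 968 and 1048, were higher on the Flk1+ array, as were E2f4, E2f6 and E2f7. E2f8, at 338, 318 and 190, and E2f5 were lower. Foxm1, which encodes FoxM1, stood at 245, 239 and 225. Myc, which promotes growth and S phase entry, stood at 92.4, 145 and 214 and was 2.20-fold higher on the Flk1+ than on the untreated array. The list's median between the induced arrays was -0.07, and 12 of 22 genes were below 0. Of 20 measured checkpoint and damage response genes, 15 were below 0 there (16 after quantile normalisation and 13 after centring), or 75% against 49.9% of all measured genes, with a median of -0.10 and 0 past 2-fold. Fancd2, of the Fanconi anaemia pathway, stood at 442, 418 and 273.

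Of 21 measured genes of cell cycle arrest, 20 were above 0 on the Snail-induced Flk1- against the untreated Flk1- array (20 after quantile normalisation and 19 after centring), with a median log2 difference of 0.40 against 0.04 for all measured genes, of which 45.1% were below 0. Other lists lay on the same side there. The 7 measured feeder fibroblast markers had a median of 1.18 and summed intensities of 522, 998 and 814. Of all 10 markers listed, 4 lay under the floor on each array, among them Col1a1, Postn and S100a4, which were under it on every array. The 12 heat shock and immediate early genes had a median of 0.37, with Jun at 562, 1215 and 2759. The part of either in the values of the arrest genes was not tested. Cdkn1c, which encodes the Cdk inhibitor p57, stood at 845, 1796 and 2049, 2.11-fold higher with induction, and was the 1 gene past 2-fold, where 2.95% of all measured genes were higher by as much, although 0 were past it under either other scaling. On the Flk1+ array Gadd45g, a stress response gene, stood at 1326 against 98.3 and 120 on the Flk1- arrays. Gas6, a ligand of receptor tyrosine kinases named for its level in arrested cells, stood at 760 there against 92.5 and 150. The list was not one-sided between the induced arrays: 8 of 21 genes (38.1%) were below 0, against 49.9% of all measured genes, with a median of 0.19. Sesn2, at 299, 372 and 193, was 1.88-fold lower on the Flk1+ than on the Snail-induced Flk1- array. From the untreated Flk1- to the Flk1+ array, 8 of 21 arrest genes reached 2-fold upward (6 after quantile normalisation and 7 after centring) and 0 downward, against 8.10% and 6.41% of all measured genes.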
